A study of Mus musculus with 18 samples.

Results

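Mouse small-intestinal organoids injured with a drug in one matrix were set against uninjured organoids of the other matrix. MG_5FU, 3 libraries, were crypt organoids kept in Matrigel with ENR medium and given 5-fluorouracil (5-FU) at 40 µM from day 4. COL_Control, 3 libraries, were crypt organoids kept in collagen type I with ENRW medium and given no drug. MG_Control, 3 libraries of untreated crypt organoids in Matrigel with ENR medium, stand beside them as the level from which each departs. All were C57BL/6J and wild type, all were harvested on day 6, and the series states that replicates are biological. The members were therefore 6 of the 18 libraries of the series, and all 16611 genes that passed a low-count filter, of 55414 in the table, were compared. MG_5FU and COL_Control differ in matrix, in medium and in drug at once, so the parts that these 3 have in any difference cannot be told apart; the log2 fold changes of each over MG_Control are given for that reason and share the MG_Control libraries. Organoids of this kind lack the mesenchyme, vessels and immune cells of the gut wall.

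Matrigel is a basement membrane extract rich in laminin and collagen IV, in which crypts grow as budding organoids with stem cells, Paneth cells and differentiated villus-type cells. Collagen type I is a fibrillar matrix of connective tissue, in which intestinal epithelium can spread as a sheet and take on genes of the fetal or repairing gut. 5-FU is a pyrimidine analog that inhibits thymidylate synthase and is built into RNA and DNA; the DNA damage that follows stabilises p53, whose targets halt the cell cycle or start cell death.

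Library totals, in units of 1000000 estimated counts, were 30.0, 27.0 and 22.3 in MG_5FU, 28.8, 26.4 and 25.8 in COL_Control, and 26.2, 27.2 and 31.5 in MG_Control. Defining markers of epithelium were high in all 9 libraries, with Epcam at 1421, 1450.3 and 1409 counts per 1000000 TMM-scaled counts of the library (CPM) in MG_5FU, 1595, 1771 and 1968 CPM in COL_Control, and 1419, 1645 and 1579 CPM in MG_Control. Replicate 2 of each group carried Y-linked counts and the others Xist counts, but COL_Control replicate 3 held both, with 738 counts of Y-linked genes beside 4893 of Xist. Whether this library holds RNA of more than 1 animal was not tested. Without that library 5952 genes were called in place of the 6708 below. Epcam was called lower in MG_5FU, with a log2 fold change of -0.32 ± 0.09, but without that library it was not called, at -0.24. Other results of named genes that this library decides are given with and without it. CPM compares one gene between groups, not one gene with another.

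In all, 6708 genes were called at an adjusted p under 0.05 by edgeR's quasi-likelihood test with Benjamini-Hochberg adjustment, 40.4% of those tested. MG_5FU was higher for 3788 of them (22.8% of genes tested) and lower for 2920 (17.6%). A called difference of at least 2-fold was found for 2939 genes (17.7%), 1708 higher and 1231 lower, and differences of at least 16-fold for 359 higher and 74 lower. The median log2 fold change over all genes was 0.01. For 8637 genes (52.0%) the MG_5FU and COL_Control libraries did not overlap, so a lack of overlap between them is common among the genes tested. With library totals unscaled that median was -0.22 and 35.9% of calls were higher in place of 56.5%, and on the deposited TPM the median was -0.46 and 16.9% of calls were higher. Directions of small differences therefore depend on the scaling, and those that turn are named below.

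The untreated Matrigel organoids lay on both sides of the comparison. On a scale on which COL_Control is 0 and MG_5FU is 1, MG_Control lay below 0.25 for 477 of the 1708 genes higher by at least 2-fold (27.9%), between 0.25 and 0.75 for 776 (45.4%) and above 0.75 for 455 (26.6%). Of the 1231 lower genes, MG_Control lay below 0.25 for 356 (28.9%), between for 443 (36.0%) and above 0.75 for 432 (35.1%). Genes near 0 differ mostly between MG_5FU and MG_Control, those near 1 mostly between COL_Control and MG_Control, and those between differ on both steps. Below 0 lay 297 of the higher genes and above 1 lay 288 of the lower genes. For these, the mean levels of both groups lay on one side of MG_Control, by unequal amounts. The position has no test, so the smaller of the 2 departures need not be a called difference. Col4a1, at 1.36, had MG_5FU over MG_Control at 1.65 ± 0.97 (edgeR adjusted p = 0.227).

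**Figure D1:**
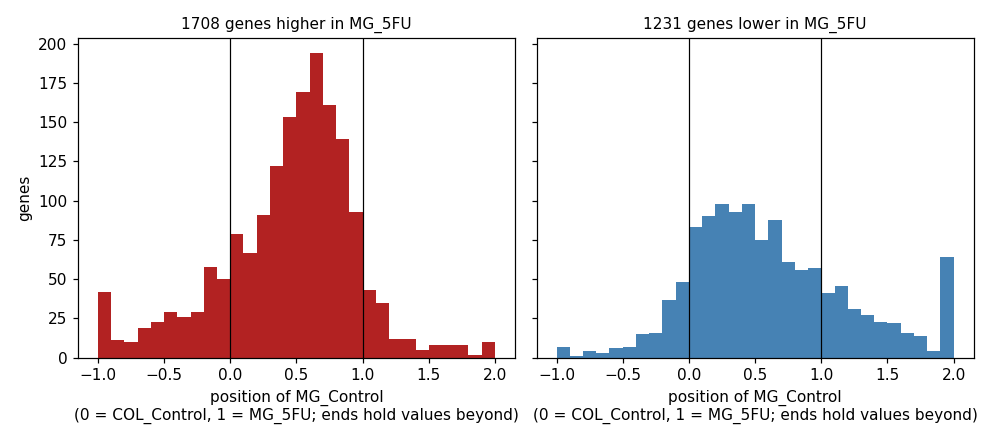
Position of MG_Control between COL_Control (0) and MG_5FU (1) on the x axis, with the number of genes on the y axis, for genes called at least 2-fold higher (left) or lower (right) in MG_5FU; the end bins also hold values beyond them. Most of the 1708 higher genes lie between 0 and 1, and 288 of the 1231 lower genes lie above 1.

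**Figure D2:**
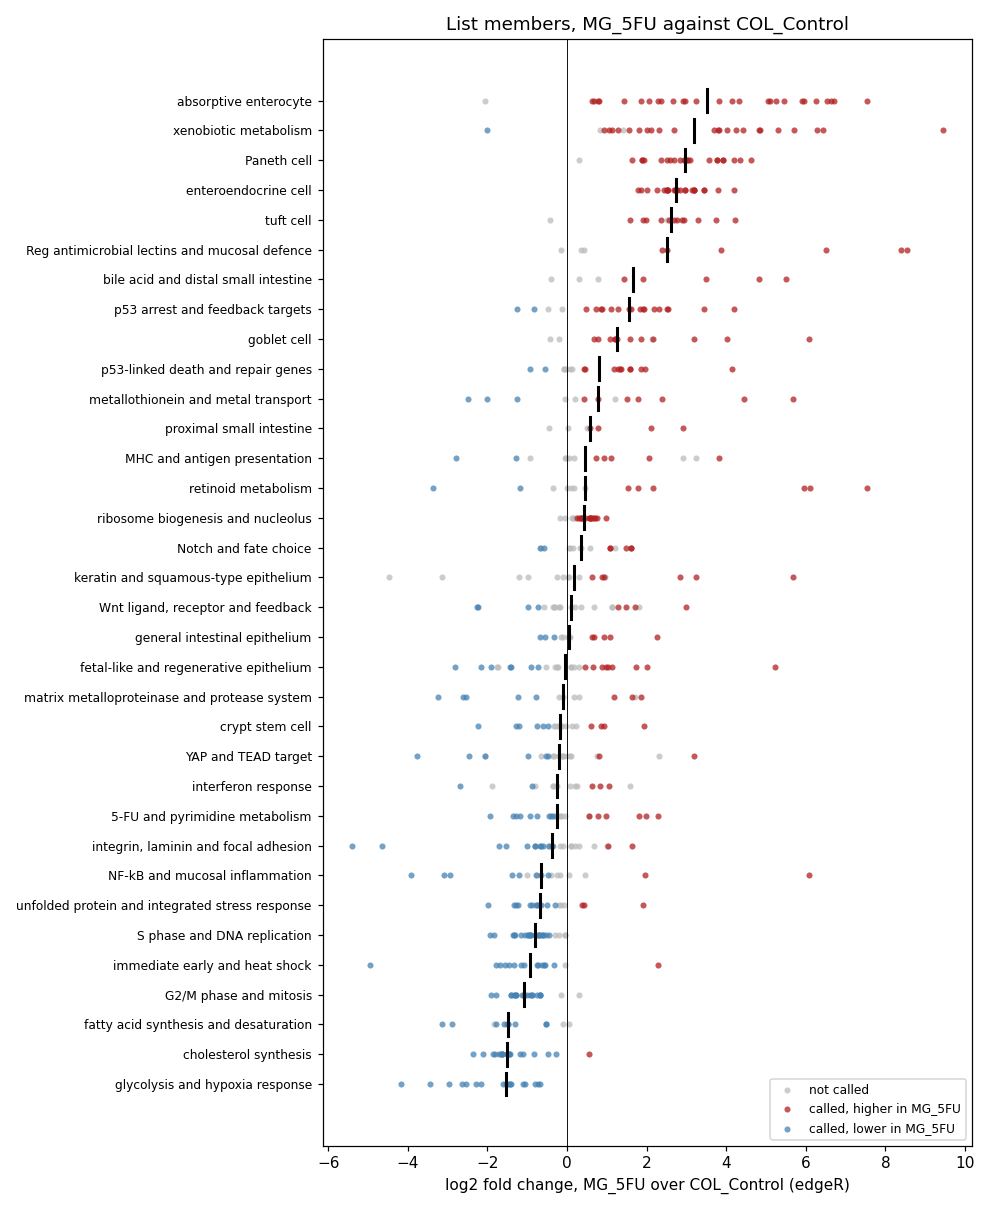
Each row is a gene list with at least 5 measured members, each point a member, and the x axis its log2 fold change of MG_5FU over COL_Control; red points were called higher, blue lower and grey not called, and black bars are list medians. Rows run from the absorptive enterocyte list (median 3.53) to the glycolysis list (median -1.52).

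Genes of the p53 arrest response were higher in the drug-treated organoids. Of 21 members, 17 were called higher and 2 lower, against 22.8% and 17.6% of all genes tested, with a median log2 fold change of 1.55. Those shares over all genes are the comparison for the counts of every list below. Cdkn1a, which encodes the cyclin-dependent kinase inhibitor p21, had 1171, 957 and 1019.6 CPM in MG_5FU, 213, 154 and 185 CPM in COL_Control, and 137, 102 and 71.0 CPM in MG_Control. The MG_5FU libraries all lay above the COL_Control libraries, which in turn lay above MG_Control. The log2 fold change of MG_5FU over COL_Control was 2.51 ± 0.20 (SE, edgeR adjusted p = 4.68e-07), with 3.34 ± 0.20 for MG_5FU over MG_Control and 0.83 ± 0.19 for COL_Control over MG_Control. Collagen culture without drug thus also carried more Cdkn1a than Matrigel culture (edgeR adjusted p = 0.00426).

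Mdm2, the ubiquitin ligase that returns p53 to low levels, followed the same order. It had 320.2, 444 and 429 CPM in MG_5FU, 99.1, 108 and 106 CPM in COL_Control, and 45.5, 53.6 and 53.7 CPM in MG_Control, with no overlap between any of the groups. Its log2 fold change over COL_Control was 1.93 ± 0.12 (edgeR adjusted p = 6.12e-08). Zmat3, a p53-induced RNA-binding protein, stood at 2.31 ± 0.15, the phosphatase Ptp4a3 at 2.53 ± 0.17 and Sesn2, a sestrin that restrains growth signalling, at 1.92 ± 0.11. In the other direction lay Ccng2, an atypical cyclin, at 33.8, 32.7 and 30.0 CPM in MG_5FU against 71.8, 80.6 and 78.4 CPM in COL_Control. That difference of -1.26 ± 0.11 (edgeR adjusted p = 1.44e-06) lay on the collagen side, since MG_Control had 33.6, 27.1 and 34.3 CPM and overlapped MG_5FU.

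Genes tied to p53-driven death and DNA repair were higher for 11 and lower for 2 of 18 measured members, with a median of 0.81, and 5 were lower on TPM. Fas, the death receptor, was the most separated of them. It had 50.4, 57.1 and 62.4 CPM in MG_5FU, 3.09, 2.83 and 3.63 CPM in COL_Control, and 5.59, 3.34 and 4.36 CPM in MG_Control. The drug-treated libraries stood far above both untreated groups, which overlapped each other (log2 fold change over COL_Control 4.15 ± 0.19, edgeR adjusted p = 5.23e-09). Aen, an apoptosis-enhancing nuclease, stood at 1.96 ± 0.10 and Perp, a p53 target of cell junctions, at 1.57 ± 0.10. The initiator caspase Casp8 was lower, with 85.3, 98.0 and 89.3 CPM in MG_5FU against 139, 127 and 134 CPM in COL_Control (-0.55 ± 0.09, edgeR adjusted p = 0.000386).

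Cell-cycle genes were lower in MG_5FU. Of 25 S-phase genes 21 were called lower and none higher, and of 21 genes of G2/M phase and mitosis 19 were lower and none higher; the medians were -0.81 and -1.08. Tk1, thymidine kinase, had 28.7, 31.7 and 26.5 CPM in MG_5FU, 131, 98.3 and 104 CPM in COL_Control, and 126, 142 and 118 CPM in MG_Control. All MG_5FU libraries lay below both untreated groups (-1.94 ± 0.14, edgeR adjusted p = 2.53e-07), and COL_Control over MG_Control was -0.21 ± 0.14 (edgeR adjusted p = 0.264). Mki67, the Ki-67 antigen of cycling cells, had 59.3, 61.7 and 59.3 CPM in MG_5FU, 178, 149 and 153 CPM in COL_Control, and 159, 149.6 and 168 CPM in MG_Control. Its log2 fold change was -1.41 ± 0.16 (edgeR adjusted p = 1.34e-05), and the untreated groups overlapped. Ccnb2, a mitotic cyclin, stood at -1.90 ± 0.13 and the replicative helicase subunit Mcm4 at -1.31 ± 0.13.

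Genes that move or metabolise 5-FU and pyrimidines gave 6 of 22 measured members higher and 9 lower, and 3 higher and 14 lower on TPM. Tyms, thymidylate synthase and the drug's target, had 100.2, 101 and 102 CPM in MG_5FU against 158, 119.9 and 136 CPM in COL_Control. The groups did not overlap, and the difference of -0.45 ± 0.11 (edgeR adjusted p = 0.00476) was not called when all 18 libraries shared the fit. Cda, cytidine deaminase, was higher, with 183, 148 and 160.1 CPM in MG_5FU against 32.6, 32.0 and 36.4 CPM in COL_Control and 70.5, 82.9 and 76.9 CPM in MG_Control (2.28 ± 0.11, edgeR adjusted p = 6.39e-09). Dut, the enzyme that clears dUTP, was lower at -0.94 ± 0.11.

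**Figure D3:**
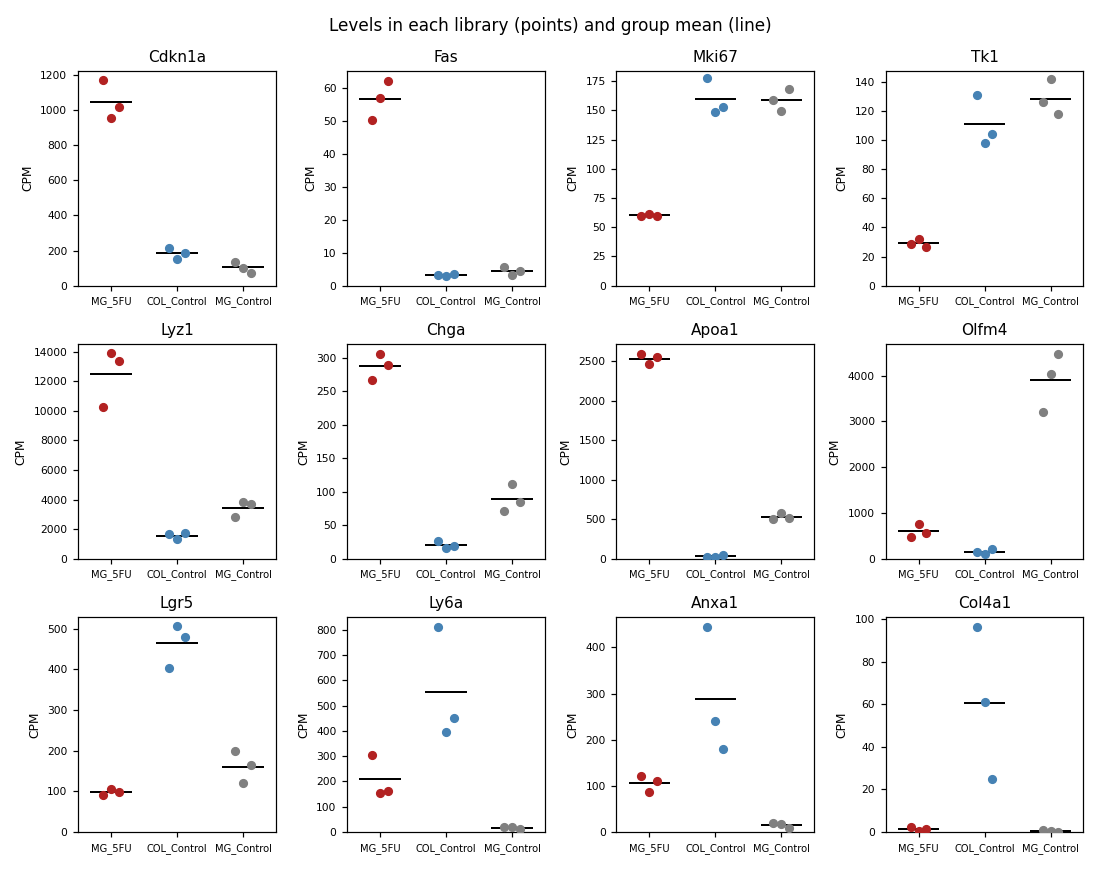
CPM (y axis, from 0) of 12 genes in each library (points) with the group mean (line), for MG_5FU, COL_Control and MG_Control. Cdkn1a and Fas are highest and Mki67 and Tk1 lowest in MG_5FU; Lyz1, Chga and Apoa1 are highest in MG_5FU and lowest in COL_Control; Ly6a, Anxa1 and Col4a1 are highest in COL_Control.

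Genes of the 5 mature intestinal lineages examined were mostly higher in MG_5FU than in COL_Control, and the summed levels of each list in MG_Control lay between. In bulk samples, fewer cells of a type and less RNA per cell cannot be told apart. Called higher were 22 of 23 Paneth cell genes, 12 of 15 goblet cell genes, 25 of 25 enteroendocrine genes, 12 of 14 tuft cell genes and 27 of 28 absorptive enterocyte genes, and none of these was called lower. With unscaled library totals 2 goblet genes were called lower. With a filter of 10 CPM, under which fewer genes were tested, 15 enteroendocrine and 4 tuft genes were called higher. Summed over measured members, Paneth genes made up 46921, 45058 and 48359 CPM in MG_5FU, 6516, 4661 and 6363 CPM in COL_Control, and 14471, 14729 and 13227 CPM in MG_Control. The 3 groups were fully separate in that order. Median log2 fold changes of the 5 lists were 2.97, 1.25, 2.75, 2.62 and 3.53 in the order named.

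Among Paneth genes, Lyz1, the secreted lysozyme, had 10243, 13891 and 13370.3 CPM in MG_5FU, 1642, 1317 and 1711 CPM in COL_Control, and 2838, 3859 and 3689 CPM in MG_Control (3.01 ± 0.16, edgeR adjusted p = 1.28e-08). Itln1, an intelectin that binds microbial sugars, had 11567, 12155 and 13101 CPM in MG_5FU and 1575, 1091 and 1670 CPM in COL_Control (3.09 ± 0.18). The alpha-defensin Defa23 had 1299.8, 1152 and 1259 CPM in MG_5FU, 93.1, 68.8 and 82.7 CPM in COL_Control, and 421, 378 and 350.4 CPM in MG_Control (3.92 ± 0.12, edgeR adjusted p = 5.05e-10). No library of one group overlapped another for these 3 genes. Alpha-defensins are near-identical copies, as are Lyz1 and Lyz2, so reads may be shared among them and single values are uncertain. Mmp7, the matrilysin that activates defensins, differed on the drug side: it had 580.2, 513 and 507 CPM in MG_5FU, 239, 136 and 142 CPM in COL_Control, and 145, 151 and 129 CPM in MG_Control (1.63 ± 0.18 over COL_Control, edgeR adjusted p = 1.20e-05).

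Enteroendocrine genes were the list in which every measured member was called higher. Pax6, at 1.78, was however not called when any single library of MG_5FU or COL_Control was left out. Pyy, at 4.19, was not called without COL_Control replicate 1, COL_Control replicate 2 or MG_5FU replicate 3. Chga, chromogranin A of hormone granules, had 267, 306 and 289 CPM in MG_5FU, 26.0, 16.0 and 19.7 CPM in COL_Control, and 71.6, 112 and 84.4 CPM in MG_Control (3.80 ± 0.27, edgeR adjusted p = 2.08e-07). Neurog3, the transcription factor of early endocrine progenitors, had 48.7, 65.8 and 57.1 CPM in MG_5FU, 4.61, 6.89 and 4.29 CPM in COL_Control, and 8.49, 11.1 and 10.9 CPM in MG_Control. Both genes were separate in all 3 groups. Neurog3 stood at 3.44 ± 0.28 over COL_Control, Tph1, the serotonin-making hydroxylase, at 3.13 ± 0.25 and Tac1, the substance P precursor, at 3.18 ± 0.22.

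Muc2, the main secreted mucin of goblet cells, had 195, 177 and 178 CPM in MG_5FU, 19.1, 16.0 and 25.5 CPM in COL_Control, and 71.0, 57.3 and 64.9 CPM in MG_Control (3.18 ± 0.15, edgeR adjusted p = 6.08e-09). Zg16, a goblet-cell lectin, had 284, 169.7 and 215 CPM in MG_5FU against 1.51, 2.93 and 5.62 CPM in COL_Control (6.07 ± 0.38). Tuft genes were low throughout, summing to 103, 129 and 125 CPM in MG_5FU, 31.8, 16.8 and 27.4 CPM in COL_Control, and 44.8, 58.8 and 60.2 CPM in MG_Control. Their groups did not overlap. Dclk1, a tuft cell kinase, stood at 2.57 ± 0.27 (edgeR adjusted p = 6.77e-06).

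**Figure D4:**
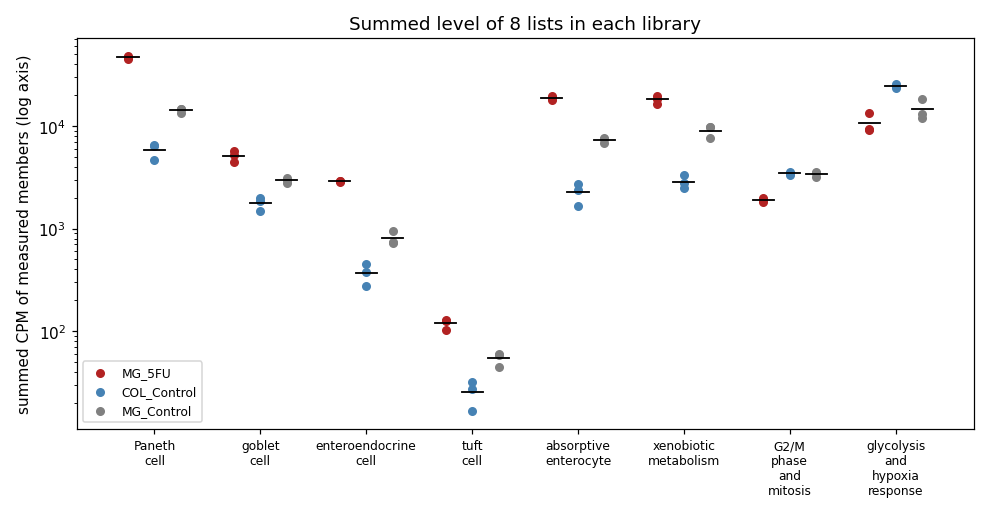
Summed CPM of the measured members of 8 lists (y axis, log scale) in each library, with group means as lines, for MG_5FU, COL_Control and MG_Control. MG_5FU lies highest and COL_Control lowest for the lineage and xenobiotic lists; COL_Control lies highest for glycolysis.

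Absorptive enterocyte genes showed the largest list median. Apoa1, an apolipoprotein of fat export, had 2593, 2464 and 2553 CPM in MG_5FU, 22.4, 25.7 and 51.0 CPM in COL_Control, and 504, 574 and 513 CPM in MG_Control. The groups were far apart, at 6.26 ± 0.28 for MG_5FU over COL_Control (edgeR adjusted p = 4.62e-09), 2.26 ± 0.23 for MG_5FU over MG_Control and -4.01 ± 0.26 for COL_Control over MG_Control. Sis, sucrase-isomaltase of the brush border, had 305, 359 and 361 CPM in MG_5FU, 3.06, 8.65 and 11.8 CPM in COL_Control, and 167, 145 and 207 CPM in MG_Control (5.45 ± 0.40). Alpi, intestinal alkaline phosphatase, varied within collagen, with 1745, 1501 and 2065 CPM in MG_5FU against 15.1, 111 and 139 CPM in COL_Control (4.33 ± 0.68, edgeR adjusted p = 0.000194). COL_Control replicate 1 was the lowest of its group for Alpi and for the list sum, which was 19353, 17876 and 18732 CPM in MG_5FU against 1658, 2386 and 2728 CPM in COL_Control. Vil1, villin of the microvillus core, differed least among those described here (0.69 ± 0.09), with 593, 588 and 599 CPM in MG_5FU and 356, 376 and 368 CPM in COL_Control.

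Drug-metabolising enzymes ran the same way, with 23 of 26 measured members higher and 1 lower. Cyp3a13, a cytochrome P450, had 967, 1099 and 1002 CPM in MG_5FU, 28.3, 32.2 and 45.2 CPM in COL_Control, and 195, 218 and 231 CPM in MG_Control (4.86 ± 0.19, edgeR adjusted p = 1.99e-09). Ces2a, a carboxylesterase, had 1052, 1263 and 1320.2 CPM in MG_5FU, 12.8, 25.4 and 31.2 CPM in COL_Control, and 489.6, 589 and 724 CPM in MG_Control (5.71 ± 0.31). These groups did not overlap, though reads may be shared among close relatives in the P450, esterase and glutathione transferase families. Cyp2s1, a P450 outside the liver-type group, was lower, with 58.9, 39.2 and 51.3 CPM in MG_5FU against 153, 206 and 245 CPM in COL_Control (-2.02 ± 0.42, edgeR adjusted p = 0.00166).

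Retinoid genes split, with 6 of 13 measured members higher and 2 lower. Aldh1a1, a retinal dehydrogenase, had 587, 745 and 762 CPM in MG_5FU, 10.1, 10.7 and 9.73 CPM in COL_Control, and 197, 292 and 316 CPM in MG_Control (6.10 ± 0.24, edgeR adjusted p = 1.99e-09). Stra6, the cell-surface receptor for retinol-binding protein, was high on the collagen side, with 1.02, 0.0402 and 0.591 CPM in MG_5FU against 8.96, 5.83 and 2.63 CPM in COL_Control. It had no count in MG_Control, so COL_Control was at least 170-fold and MG_5FU at least 16-fold higher than MG_Control, with a floor of 3 counts over the group. The 2 calls lower in the list became 1 without MG_5FU replicate 2, MG_5FU replicate 3 or COL_Control replicate 1.

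Bile acid genes were higher for 5 of 8 measured members, among them Slc51a, a subunit of the basolateral bile acid exporter, with 78.0, 61.8 and 66.2 CPM in MG_5FU, 0.935, 2.96 and 3.37 CPM in COL_Control, and 27.5, 29.9 and 33.2 CPM in MG_Control (4.83 ± 0.33, edgeR adjusted p = 1.34e-07). Slc10a2, the apical bile acid importer of the ileum, had 5.86, 4.91 and 5.07 CPM in MG_5FU, 4.32, 2.79 and 2.18 CPM in COL_Control, and 0.907, 0.515 and 0.828 CPM in MG_Control. Both groups lay above MG_Control, and the difference between them was 0.77 (95% interval 0.09 to 1.45, edgeR adjusted p = 0.0685); it was called with DESeq2 and, at 1.08, without COL_Control replicate 1. Of 7 measured proximal genes 4 were higher, Gata4, a factor of duodenum and jejunum, by 0.59 ± 0.13. On TPM 2 of the proximal genes were higher and 1 lower, and Gata4 was not called, at 0.12.

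Among antimicrobial lectins and mucosal defence genes, 6 of 9 measured members were higher. Reg3b, a bactericidal lectin, had 124, 175 and 134 CPM in MG_5FU, 10.6, 9.17 and 9.80 CPM in COL_Control, and 11.1, 24.5 and 15.4 CPM in MG_Control (3.87 ± 0.25, edgeR adjusted p = 8.62e-08). Reg1 had 1547, 1284 and 1544 CPM in MG_5FU, 2.26, 2.48 and 7.07 CPM in COL_Control, and 421, 509.8 and 523 CPM in MG_Control. Reg3b thus differed mostly on the drug side and Reg1 mostly on the collagen side. For Reg1 the log2 fold change was 8.55 ± 0.39 (edgeR adjusted p = 4.76e-09) and 9.26 without COL_Control replicate 3.

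Some genes of MG_5FU had no count in any COL_Control library. Mt4, a metallothionein known from squamous epithelium, had 25.6, 27.3 and 29.6 CPM in MG_5FU and 9.18, 9.08 and 5.95 CPM in MG_Control, so that MG_5FU was at least 793-fold higher than COL_Control at a floor of 3 counts over the group. Aqp8, a water channel, had 16.8, 22.5 and 16.4 CPM in MG_5FU and was at least 540-fold higher. The P450 gene Cyp2c38 was at least 409-fold and Slc6a3, a dopamine transporter, at least 310-fold higher. MG_Control carried 687 counts of Mt4 and 170 of Slc6a3, so the absence belonged to the collagen libraries. These bounds cover counting error only.

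Metallothionein genes set collagen apart from both Matrigel groups. The promoters of Mt1, Mt2 and Slc30a1, genes known to respond to zinc, are shown because all 3 were higher in MG_5FU than in COL_Control. Each is the 250 bases before the RefSeq transcription start (GRCm38.p6, all on the plus strand), at chr8:94178839-94179088, chr8:94172368-94172617 and chr1:191906531-191906780 in the order printed; capitals mark the metal response core, TGCACNC or TGCGCNC on either strand.
Mt1: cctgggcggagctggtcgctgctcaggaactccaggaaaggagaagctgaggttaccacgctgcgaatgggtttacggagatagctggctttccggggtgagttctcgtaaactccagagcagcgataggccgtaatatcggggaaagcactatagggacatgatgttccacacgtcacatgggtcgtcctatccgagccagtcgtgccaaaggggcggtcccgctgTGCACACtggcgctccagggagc
Mt2: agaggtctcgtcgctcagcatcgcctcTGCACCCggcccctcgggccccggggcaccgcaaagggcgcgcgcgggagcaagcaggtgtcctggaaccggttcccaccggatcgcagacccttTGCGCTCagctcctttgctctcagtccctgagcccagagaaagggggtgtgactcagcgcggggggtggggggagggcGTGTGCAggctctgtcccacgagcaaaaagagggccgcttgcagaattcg
Slc30a1: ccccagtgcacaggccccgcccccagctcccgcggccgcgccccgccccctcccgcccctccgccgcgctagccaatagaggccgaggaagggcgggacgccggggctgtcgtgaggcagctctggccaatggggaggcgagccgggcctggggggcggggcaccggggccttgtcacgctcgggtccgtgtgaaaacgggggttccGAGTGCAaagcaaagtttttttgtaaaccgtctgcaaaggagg
Mt2 held 3 matches, starting 223, 128 and 50 bases before the start, Mt1 held 1, 23 bases before it, and Slc30a1 held 1, 43 bases before it. The core occurred in 21.4% of 32851 RefSeq windows of that length, and in 6 of 13 windows of the metal-handling genes; a match is a description and not a binding site.

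Mt1, a metallothionein that buffers zinc and copper, had 3671, 2547 and 3002 CPM in MG_5FU, 126, 116 and 183 CPM in COL_Control, and 2626, 2321 and 1895 CPM in MG_Control. Mt2 had 505, 362 and 403 CPM in MG_5FU, 6.19, 7.31 and 11.2 CPM in COL_Control, and 600.1, 566 and 429.9 CPM in MG_Control. For both, the Matrigel groups overlapped and the collagen libraries stood far below. Mt1 was at 4.44 ± 0.20 over COL_Control (edgeR adjusted p = 4.62e-09) and 0.43 ± 0.18 over MG_Control (edgeR adjusted p = 0.0804), and Mt2 at 5.69 ± 0.25 and -0.33 ± 0.20 (edgeR adjusted p = 0.239 for the second). Slc30a1, the zinc exporter of the plasma membrane, was also higher in MG_5FU than in COL_Control, at 2.38 ± 0.21. Slc39a4, the zinc importer ZIP4 of the gut, went the other way, with 138, 92.5 and 99.3 CPM in MG_5FU, 678, 619.7 and 565 CPM in COL_Control, and 70.0, 51.6 and 53.9 CPM in MG_Control (-2.50 ± 0.16, edgeR adjusted p = 8.27e-08). Iron genes were mixed, with Fth1, the ferritin heavy chain, at 2679, 2306 and 2630.1 CPM in MG_5FU against 905, 788 and 991 CPM in COL_Control, and Tfrc, the transferrin receptor, lower at -2.02 ± 0.26. In all, 7 of 13 measured members were higher and 3 lower. Metal content of the matrices and media was not measured, and its part in the result was not tested.

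**Figure D5:**
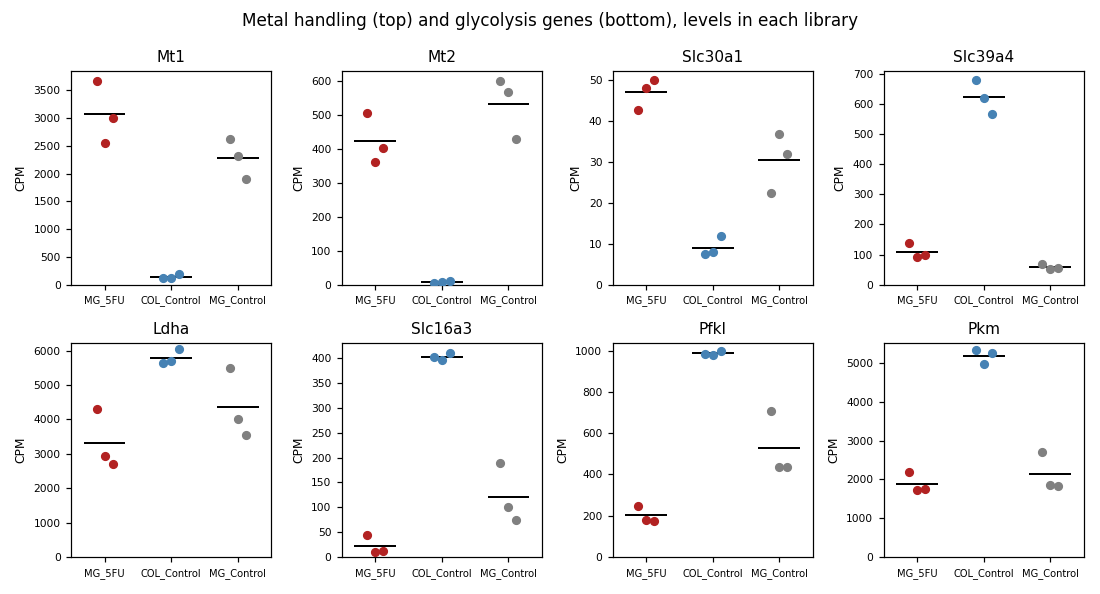
CPM (y axis, from 0) of 4 metal-handling genes (top) and 4 glycolysis genes (bottom) in each library (points) with the group mean (line), for MG_5FU, COL_Control and MG_Control. Mt1 and Mt2 are near the axis in COL_Control, between 6.19 and 183 CPM, and Slc39a4 and all 4 glycolysis genes are highest there.

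Glycolysis and hypoxia-response genes were higher in COL_Control than in MG_5FU, and where MG_Control lay differed among them. All 18 members were called lower in MG_5FU, with a median of -1.52. Slc16a3, the lactate exporter MCT4, had 43.9, 10.7 and 11.7 CPM in MG_5FU, 403, 397 and 411 CPM in COL_Control, and 189, 101 and 73.4 CPM in MG_Control. Its log2 fold change was -4.18 ± 0.57 (edgeR adjusted p = 6.76e-05) and -5.17 without MG_5FU replicate 1, the highest of its group. Pfkl, a phosphofructokinase, had 248, 179.8 and 176 CPM in MG_5FU, 986, 982 and 997 CPM in COL_Control, and 710.5, 438 and 438 CPM in MG_Control (-2.29 ± 0.21). Both were separate in all 3 groups, with MG_Control between.

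Pkm, pyruvate kinase, had 2192, 1734 and 1750 CPM in MG_5FU, 5344, 4983 and 5268 CPM in COL_Control, and 2716, 1868 and 1834 CPM in MG_Control (-1.46 ± 0.15, edgeR adjusted p = 5.69e-06). Here the Matrigel groups overlapped (-0.18 ± 0.15 for MG_5FU over MG_Control, edgeR adjusted p = 0.404) and the collagen libraries stood above both. Ldha, lactate dehydrogenase A, had 4296, 2933 and 2709 CPM in MG_5FU, 5643, 5708 and 6058 CPM in COL_Control, and 5495, 4023 and 3548 CPM in MG_Control (-0.81 ± 0.19). Replicate 1 was the highest of its group in both Matrigel groups for Slc16a3, Pfkl, Pkm and Ldha. Ero1l, an oxidase of the endoplasmic reticulum, had 159, 162 and 149.9 CPM in MG_5FU, 1194, 1555 and 1723 CPM in COL_Control, and 665, 532 and 401 CPM in MG_Control (-3.25 ± 0.29).

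The promoters of Ldha and Slc16a3 are shown as the genes with the smallest and the largest difference among Slc16a3, Pfkl, Pkm and Ldha. They are the 250 bases before the RefSeq start (GRCm38.p6, plus strand) at chr7:46845554-46845803, the Ldha window with most matches, and chr11:120948817-120949066; capitals mark the hypoxia core ACGTG on either strand.
Ldha: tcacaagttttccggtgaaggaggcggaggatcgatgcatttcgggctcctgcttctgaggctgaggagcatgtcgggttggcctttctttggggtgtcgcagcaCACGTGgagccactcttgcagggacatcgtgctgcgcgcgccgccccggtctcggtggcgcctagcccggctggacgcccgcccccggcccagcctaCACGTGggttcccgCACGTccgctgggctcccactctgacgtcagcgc
Slc16a3: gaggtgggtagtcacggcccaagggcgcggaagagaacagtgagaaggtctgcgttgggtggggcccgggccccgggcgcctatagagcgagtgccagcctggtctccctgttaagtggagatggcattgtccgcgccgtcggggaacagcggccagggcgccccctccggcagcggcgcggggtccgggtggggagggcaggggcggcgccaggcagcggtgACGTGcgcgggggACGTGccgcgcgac
Ldha held 5 matches, which overlap where both strands match, the nearest 34 bases before the start, and Slc16a3 held 2, at 27 and 14 bases. The core occurred in 16.6% of all windows and in 14 of 26 windows of the glycolysis and hypoxia genes. Other motifs were searched in the same way. The sterol core TCACNCCAC lay in 1 of 16 windows of cholesterol genes (1.05% of all windows), the cell-cycle motif TTTGAA in 7 of 17 windows of G2/M genes (16.0%), the TEAD motif GGAATG in 7 of 19 windows of YAP genes (12.6%) and a p53 response element in none of 21 windows of arrest genes (0.00913%). Absence says only that these letters are not in this window.

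Sterol and fatty acid synthesis were lower in MG_5FU. Of 20 cholesterol genes 19 were called lower and 1 higher, and of 13 fatty acid genes 10 lower and none higher, with medians of -1.52 and -1.49. Hmgcs1, an early enzyme of the mevalonate pathway, had 199.8, 206 and 210.1 CPM in MG_5FU, 446, 694 and 612 CPM in COL_Control, and 552, 619 and 696 CPM in MG_Control (-1.51 ± 0.17, edgeR adjusted p = 1.18e-05). Scd2, a stearoyl-CoA desaturase, had 232, 252 and 262 CPM in MG_5FU, 1596, 2666 and 2266 CPM in COL_Control, and 1739, 1577 and 1959 CPM in MG_Control (-3.13 ± 0.24). The untreated groups overlapped, and the drug-treated libraries stood below them. Mvd, a decarboxylase of the mevalonate pathway, stood at -2.35 ± 0.16.

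Stress-response genes of protein folding and amino acid supply were lower for 12 and higher for 3 of 18 members, with a median of -0.68, and 1 was higher with unscaled library totals, with all 18 libraries or on TPM. Trib3, a pseudokinase of the ATF4 response, had 8.70, 5.39 and 5.61 CPM in MG_5FU, 24.8, 25.3 and 28.0 CPM in COL_Control, and 39.2, 47.7 and 37.3 CPM in MG_Control (-1.98 ± 0.20, edgeR adjusted p = 3.98e-06). The serine and one-carbon enzymes Psat1 and Shmt2 stood at -1.23 ± 0.13 and -1.29 ± 0.12. Ribosome biogenesis genes were slightly higher for 15 of 20 members (median 0.42), but the median was -0.14 on TPM, and 7 were higher and 2 lower with unscaled library totals.

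Basement membrane and adhesion genes were more often higher in COL_Control than in MG_5FU. Of 26 integrin, laminin and focal adhesion genes 13 were called lower in MG_5FU and 2 higher, with a median of -0.38. The lower count was 8 without MG_5FU replicate 1, 7 with all 18 libraries and 20 on TPM. With all 18 libraries, with DESeq2 or on TPM the higher count was 1. It was also 1 without MG_5FU replicate 2, COL_Control replicate 1 or COL_Control replicate 3. Col4a1, a chain of the basement membrane collagen, had 2.44, 0.604 and 1.18 CPM in MG_5FU, 96.2, 61.3 and 24.7 CPM in COL_Control, and 1.02, 0.404 and 0 CPM in MG_Control. The Matrigel groups overlapped and the collagen libraries stood far above (-5.40 ± 0.67, edgeR adjusted p = 3.09e-05, and -6.12 without MG_5FU replicate 1). Its partner Col4a2 had 3.42, 1.33 and 1.08 CPM in MG_5FU against 77.4, 50.6 and 24.2 CPM in COL_Control, at -4.66 ± 0.68 and -5.38 without MG_5FU replicate 1. Itga2, a collagen-binding integrin subunit, had 31.8, 37.1 and 27.4 CPM in MG_5FU, 104, 126 and 86.1 CPM in COL_Control, and 48.2, 44.3 and 52.9 CPM in MG_Control (-1.71 ± 0.15, edgeR adjusted p = 1.02e-06). Itgb4, the hemidesmosomal laminin receptor subunit, went the other way, with 235, 254 and 271 CPM in MG_5FU, 143, 115 and 115 CPM in COL_Control, and 67.5, 61.7 and 78.6 CPM in MG_Control (1.03 ± 0.12).

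Fetal-like and regenerative genes summed higher in both groups than in MG_Control, and the comparison between MG_5FU and COL_Control split. Abundant genes weigh most in that sum. Krt19 had means of 4585 CPM in MG_5FU, 2514 CPM in COL_Control and 2119 CPM in MG_Control. Its log2 fold change of COL_Control over MG_Control was 0.25 ± 0.14 (edgeR adjusted p = 0.197). The list summed to 13141, 11796 and 12512 CPM in MG_5FU, 13455, 9029.6 and 9025 CPM in COL_Control, and 4166, 4449 and 3951 CPM in MG_Control, so that both groups lay above MG_Control and overlapped each other. Of 26 members 9 were called higher and 7 lower in MG_5FU, with a median of -0.06, which was 0.21 without COL_Control replicate 1; on TPM 13 were lower. Ly6a, the Sca-1 antigen of repairing epithelium, had 304, 155 and 164 CPM in MG_5FU, 811, 396 and 451 CPM in COL_Control, and 21.4, 20.5 and 10.1 CPM in MG_Control. All 3 groups were separate, at -1.41 ± 0.33 over COL_Control (edgeR adjusted p = 0.00407), 3.59 ± 0.37 for MG_5FU over MG_Control and 5.00 ± 0.39 for COL_Control over MG_Control. Anxa1, an annexin that damps inflammation, had 122, 87.4 and 109.5 CPM in MG_5FU, 444, 241 and 179 CPM in COL_Control, and 18.3, 17.2 and 8.24 CPM in MG_Control (-1.44 ± 0.35). Il33, an epithelial alarmin, stood at -2.81 ± 0.35.

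Other members of that list, Ctsd and Anxa8 among them, were higher in MG_5FU than in COL_Control. Ctsd, the lysosomal protease cathepsin D, had 1704, 1747 and 1707 CPM in MG_5FU, 942, 797 and 860.2 CPM in COL_Control, and 459.9, 424 and 429 CPM in MG_Control (0.99 ± 0.10, edgeR adjusted p = 4.07e-06). Anxa8 had 14.1, 10.4 and 9.60 CPM in MG_5FU, 3.48, 3.24 and 1.74 CPM in COL_Control, and 0.508, 0.478 and 0.223 CPM in MG_Control (2.01 ± 0.26). Both genes had MG_5FU above COL_Control and COL_Control above MG_Control. Clu, clusterin of revival-type stem cells, had 644, 615 and 723 CPM in MG_5FU against 1558, 971 and 733 CPM in COL_Control and 124, 139 and 122 CPM in MG_Control. Its difference of -0.72 ± 0.24 (edgeR adjusted p = 0.0309) was not called without COL_Control replicate 1, at -0.37, nor without any single MG_5FU library.

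Of 22 measured YAP and TEAD targets 2 were called higher and 6 lower, against 22.8% and 17.6% of all genes tested. On TPM 1 was higher and 11 lower. Ccn1, a matricellular YAP target, had 109, 179.6 and 178 CPM in MG_5FU, 203, 137 and 93.1 CPM in COL_Control, and 21.0, 30.1 and 26.1 CPM in MG_Control. The 2 groups overlapped and both stood above MG_Control. Their difference was 0.11 (95% interval -0.43 to 0.65, edgeR adjusted p = 0.761), with a sign that turned under library totals and on TPM. Ccn2 had 59.9, 97.5 and 108 CPM in MG_5FU, 220.4, 104 and 93.3 CPM in COL_Control, and 4.21, 5.66 and 4.01 CPM in MG_Control, with a difference of -0.66 (95% interval -1.28 to -0.04, edgeR adjusted p = 0.0852); it was called without COL_Control replicate 3, at -0.88, and with library totals. Krt7, a simple keratin of the fetal-like list, had 1016, 984 and 1012 CPM in MG_5FU against 1151, 679 and 627 CPM in COL_Control and 385, 420.1 and 341 CPM in MG_Control. Its difference was 0.29 (95% interval -0.17 to 0.76, edgeR adjusted p = 0.302), and 0.62 and called without COL_Control replicate 1. For none of these 3 does a p above the threshold show that the groups act alike.

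Arhgef17, a guanine nucleotide exchange factor, set the collagen side apart, with 1.46, 1.77 and 2.27 CPM in MG_5FU, 34.5, 18.3 and 22.3 CPM in COL_Control, and 3.74, 0.845 and 1.11 CPM in MG_Control (-3.78 ± 0.45, edgeR adjusted p = 2.02e-05). Axl, a receptor tyrosine kinase, had 8.55, 6.04 and 4.68 CPM in MG_5FU and 0.580, 1.24 and 0.296 CPM in COL_Control. It had no count in MG_Control, so MG_5FU was at least 189-fold and COL_Control at least 20.0-fold higher than MG_Control. Axl stood at 3.18 ± 0.45 over COL_Control, and at 3.85 without COL_Control replicate 2.

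Immediate early and heat shock genes were lower in MG_5FU for 14 of 16 members and higher for 1. Jun had 136, 175 and 164 CPM in MG_5FU, 365, 343 and 304 CPM in COL_Control, and 109, 129 and 141 CPM in MG_Control (-1.09 ± 0.12, edgeR adjusted p = 1.25e-05). The stress chaperone Hspa1b had 35.5, 41.9 and 40.4 CPM in MG_5FU, 128, 91.2 and 79.0 CPM in COL_Control, and 9.18, 10.9 and 7.61 CPM in MG_Control, and shares reads with its near copy Hspa1a. Jun in the Matrigel groups overlapped, while Hspa1b was separate in all 3. The exception was Fosl1, the AP-1 member Fra-1, with 22.2, 29.9 and 27.7 CPM in MG_5FU, 8.12, 4.69 and 3.44 CPM in COL_Control, and 0.943, 1.21 and 0.223 CPM in MG_Control (2.29 ± 0.36, edgeR adjusted p = 0.000219).

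Matrix proteases split, 3 of 13 measured members higher and 5 lower, against 22.8% and 17.6% of all genes tested. Their lower count was 3 without COL_Control replicate 2. Plat, tissue plasminogen activator, had 77.5, 60.7 and 49.7 CPM in MG_5FU, 182, 135 and 126 CPM in COL_Control, and 18.6, 17.7 and 11.1 CPM in MG_Control (-1.23 ± 0.21, edgeR adjusted p = 0.000406). Timp3, a metalloproteinase inhibitor, was higher at 1.86 ± 0.31. Of 16 measured keratin-type genes 6 were higher and none lower, though 1 was lower without MG_5FU replicate 1 or COL_Control replicate 1 and 3 were lower on TPM. Krt20, a keratin of mature villus cells, had 474, 445 and 392 CPM in MG_5FU, 34.3, 48.3 and 56.8 CPM in COL_Control, and 86.6, 88.4 and 86.9 CPM in MG_Control (3.23 ± 0.17, edgeR adjusted p = 1.20e-08). Krt8, the main simple keratin, had 6086, 6581 and 6709 CPM in MG_5FU, 3948, 2931 and 3335 CPM in COL_Control, and 2746, 3270.1 and 3151 CPM in MG_Control (0.92 ± 0.13). The untreated groups overlapped for Krt8 and were separate for Krt20.

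Stem cell genes did not move as one. Of 20 members 4 were called higher and 6 lower, against 22.8% and 17.6% of all genes tested. With unscaled library totals 10 were lower, and on TPM 2 were higher and 14 lower. Lgr5, the R-spondin receptor of crypt base stem cells, had 89.9, 106 and 98.0 CPM in MG_5FU, 404, 508 and 480 CPM in COL_Control, and 199, 119.7 and 164 CPM in MG_Control. The groups were separate, at -2.24 ± 0.26 over COL_Control (edgeR adjusted p = 1.37e-05), -0.71 ± 0.25 for MG_5FU over MG_Control and 1.53 ± 0.25 for COL_Control over MG_Control. Olfm4, a secreted marker of the same cells, had 473, 759 and 558 CPM in MG_5FU, 149.8, 105 and 212 CPM in COL_Control, and 3216, 4039.6 and 4476 CPM in MG_Control. Here both groups lay below MG_Control, collagen lowest (1.94 ± 0.29 over COL_Control, edgeR adjusted p = 0.000149, not called when all 18 libraries shared the fit). Prom1, a membrane glycoprotein of stem and progenitor cells, and Lrig1, a brake on EGF receptor signalling, were lower, at -1.28 ± 0.14 and -1.20 ± 0.16, and Sox9, a crypt transcription factor, was higher at 0.86 ± 0.11.

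Wnt pathway genes gave 4 calls in each direction among 21 measured members, close to the 22.8% and 17.6% of all genes tested. The lower count was 9 under unscaled library totals, 10 on TPM and 7 without MG_5FU replicate 3. Wnt3, a ligand made by Paneth cells, had 33.4, 32.7 and 36.1 CPM in MG_5FU, 9.51, 9.69 and 12.2 CPM in COL_Control, and 11.4, 10.3 and 9.84 CPM in MG_Control (1.70 ± 0.16, edgeR adjusted p = 3.29e-06). The untreated groups overlapped. Ccnd1, cyclin D1, had 216, 228 and 219.9 CPM in MG_5FU, 112, 62.6 and 65.2 CPM in COL_Control, and 51.1, 61.3 and 47.8 CPM in MG_Control (1.47 ± 0.19). Axin2, the feedback target of Wnt signalling, had 32.9, 31.8 and 38.5 CPM in MG_5FU against 39.9, 40.2 and 38.1 CPM in COL_Control and 49.9, 40.9 and 49.8 CPM in MG_Control. Its difference was -0.20 (95% interval -0.44 to 0.05, edgeR adjusted p = 0.184), and it was called with library totals, at -0.43. The co-receptor Lrp5 was lower at -0.97 ± 0.14.

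Notch and fate genes were higher for 5 of 15 measured members and lower for 2; the lower count was 1 without MG_5FU replicate 1 or MG_5FU replicate 3 and none without COL_Control replicate 2. Hes1, the Notch effector, had 86.4, 90.8 and 91.5 CPM in MG_5FU, 32.3, 33.0 and 30.1 CPM in COL_Control, and 82.8, 83.2 and 79.5 CPM in MG_Control. The 2 Matrigel groups lay close, at 0.13 ± 0.09 (edgeR adjusted p = 0.332), and collagen lay below them (1.49 ± 0.10 for MG_5FU over COL_Control, edgeR adjusted p = 8.76e-08). The secretory factor Atoh1 had 33.3, 31.1 and 34.4 CPM in MG_5FU, 14.2, 18.3 and 14.2 CPM in COL_Control, and 29.4, 33.0 and 29.2 CPM in MG_Control (1.08 ± 0.14), and was not called when all 18 libraries shared the fit. The ligands Dll1 and Dll4 stood at 1.09 ± 0.17 and 1.60 ± 0.18.

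Immune-type genes of the epithelium were divided. Il18, an epithelial cytokine, had 52.9, 46.0 and 48.0 CPM in MG_5FU, 1.13, 0.552 and 0.444 CPM in COL_Control, and 10.8, 11.9 and 11.8 CPM in MG_Control (6.09 ± 0.38, edgeR adjusted p = 5.46e-08). Nos2, inducible nitric oxide synthase, had 0.582, 1.69 and 0.443 CPM in MG_5FU against 12.0, 16.2 and 13.4 CPM in COL_Control and 8.02, 10.3 and 11.2 CPM in MG_Control (-3.92 ± 0.43, and -4.73 without MG_5FU replicate 2). Il18 was separate in all 3 groups and Nos2 was low in MG_5FU. Of 17 measured NF-kB and inflammation genes 2 were higher and 8 lower, with 5 lower without MG_5FU replicate 3 or COL_Control replicate 1. Tap1, the peptide transporter of antigen presentation, had 69.4, 101 and 104 CPM in MG_5FU, 21.0, 17.7 and 26.6 CPM in COL_Control, and 11.2, 10.3 and 11.7 CPM in MG_Control (2.07 ± 0.17, edgeR adjusted p = 6.62e-07). Of 14 measured antigen presentation genes 5 were higher and 2 lower, with a median of 0.46; on TPM 2 were higher and 7 lower, with a median of -0.50. Interferon genes gave 3 of 15 higher and 2 lower, close to the 22.8% and 17.6% of all genes tested. Without MG_5FU replicate 1 or COL_Control replicate 2, 1 was higher, and on TPM none was higher and 4 were lower. The list median was -0.24, and 0.14 without COL_Control replicate 3.

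Few markers of other cells were measured, and those that were stood low. Of 12 mesenchymal, 10 immune, 7 endothelial and 8 glial and neuronal markers, 3, 4, 3 and 2 passed the filter, and Dcn, Adgre1, Kdr, Emcn, Flt1 and Sox10 had no count in any of the 9 libraries. Mesenchymal markers summed to 14.9, 10.2 and 9.16 CPM in MG_5FU, 3.45, 1.79 and 2.44 CPM in COL_Control, and 4.90, 5.59 and 6.30 CPM in MG_Control. Vim, vimentin, made up most of the sum in MG_5FU, with 14.1, 9.74 and 8.62 CPM in MG_5FU against 1.74, 0.552 and 1.96 CPM in COL_Control (2.93 ± 0.58, edgeR adjusted p = 0.00125). Among immune markers, Lyz2, the lysozyme of macrophages, had 15.0, 16.7 and 12.4 CPM in MG_5FU, 3.09, 5.41 and 3.40 CPM in COL_Control, and 5.62, 4.48 and 2.39 CPM in MG_Control (1.89, edgeR adjusted p = 0.000326), and may share reads with the abundant Lyz1. Cd68, a lysosomal protein of macrophages, had 5.79, 4.31 and 3.15 CPM in MG_5FU, 13.5, 8.45 and 6.47 CPM in COL_Control, and 1.12, 0.478 and 0.796 CPM in MG_Control (-1.10, edgeR adjusted p = 0.0214), and was not called without MG_5FU replicate 2, MG_5FU replicate 3 or COL_Control replicate 1, nor with all 18 libraries. Neither gene overlapped between MG_5FU and COL_Control, and the immune list summed to 24.1, 24.8 and 18.4 CPM in MG_5FU against 18.0, 17.1 and 11.4 CPM in COL_Control. The part of these markers in the results above was not tested. The mitochondrial ribosomal RNA mt-Rnr2 had 5538, 2628 and 3609.8 CPM in MG_5FU, 1067, 889 and 1235 CPM in COL_Control, and 1970, 1819.8 and 1442 CPM in MG_Control (1.88 ± 0.22, edgeR adjusted p = 1.57e-05), and its part in the results was not tested either. Of 13 general epithelial genes 5 were higher and 3 lower, against 5 lower with unscaled library totals and 3 higher and 7 lower on TPM. Among them was Cdx2, the intestinal homeobox factor, at 139, 129.9 and 118 CPM in MG_5FU against 184, 187 and 194 CPM in COL_Control (-0.55 ± 0.10, edgeR adjusted p = 0.000484).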

How the data were processed

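RNA from organoids was sequenced as mRNA libraries (SMART-Seq mRNA and Nextera XT kits, per the labels' protocols), and reads were processed with bcl2fastq 2.20 and DRAGEN on the mouse build GRCm39 (mm39), per the submitters' processing notes; roles, annotation, filters and counting strand are not given in the sources used here, so overlapping antisense genes cannot be told apart. The authors deposited 1 table of 55414 genes with estimated counts, of which 67.8% of values above 0 were whole to within 1e-09, and TPM values per library summing to 1000000.

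Estimated counts were rounded and genes kept by filterByExpr (10 counts, 15 in total). edgeR 4.0.16 in R 4.3.3 (TMM scaling, quasi-likelihood test, group as the only term) was fitted to the 12 libraries of MG_5FU, COL_Control, MG_Control and COL_5FU, which share 1 estimate of spread; p-values were adjusted by Benjamini-Hochberg over 16611 genes and called under 0.05. Errors of log2 fold changes are SE. The 95% intervals of log2 fold changes come from that fit and include the spread between libraries; floors of 3 counts cover counting error only. The fit was tested on simulated counts.

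Alternatives were RLE scaling, library totals, other filters, other sets of libraries, a replicate block, each library left out, DESeq2 1.42.0 and limma 3.58.1 on log2(TPM + 1). Genes were named by fixed rules: the 12 largest called fold changes and 8 largest CPM differences per direction, up to 4 members of smallest adjusted p per list, and 32 markers. Members and lists were chosen with earlier results of these data known, and list members beyond those rules were picked after their values were seen. A few genes that meet those rules are not reported here and are left out of the named genes. Sequences are RefSeq's (GRCm38.p6), whose coordinates are not those of the deposited build.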

Additional observations from a re-analysis of the deposited data

How the results depend on the processing

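The number of genes called was 6708, and ranged from 5636 to 7309 over RLE scaling, unscaled library totals, both filters, the fit of MG_5FU and COL_Control alone, all 18 libraries and DESeq2, with 8678 for limma-trend on log2(TPM + 1). Unscaled library totals called 4682 genes lower, limma-trend on log2(TPM + 1) called 1465 higher and 7213 lower, and a filter of 10 CPM left 1663 genes at 2-fold or more, since fewer genes were tested. Leaving out each library in turn gave 5627 to 6074 calls, 3189 to 3519 higher, 2428 to 2555 lower and 2661 to 2888 at 2-fold or more. Of 191 named genes, all 191 kept their direction and call with RLE scaling, 187 with library totals, 183 with all 18 libraries, 190 with DESeq2 and 176 on TPM. Ccn1 turned to -0.12 with library totals, -0.01 without MG_5FU replicate 2, -0.00 without MG_5FU replicate 3, -0.13 without COL_Control replicate 3 and -0.38 on TPM, and leaving out single libraries gave values from -0.13 to 0.43. On TPM, Krt7 was at -0.35; the cause was not tested.

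With the replicate block 7053 genes were called, 3916 higher and 3137 lower, and all 191 named genes kept their call. Deviations of same-numbered MG_5FU and COL_Control libraries correlated at 0.259, 0.491 and 0.078 over 9772 genes, and each library correlated best with its own number. Replicate 2 was also the library with Y-linked counts and few or no Xist counts in each of the 6 groups. Both are hints from the data; the labels do not state that a number marks a shared animal and 1 correlation was under 0.1, so the block was kept as an alternative.

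Counts of list members moved by over 1.5 times for 25 list counts on TPM, 12 with all 18 libraries, 12 with the filter of 10 CPM and 9 with library totals. With 3 libraries a group, genes of low count are limited by depth: 64 of 664 list genes fell below the filter.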
